A study of Mus musculus with 40 samples.

Results

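Expression of dHLH-Bmal1 in aC3 cells was measured in 2 libraries and compared with 2 libraries of aC3 cells that carried the empty vector (EV), so that 4 of the 40 libraries of the series hold the comparison. YUMM2.1 is a mouse melanoma line from a genetically engineered tumor with mutant Braf, heterozygous loss of Cdkn2a and a heterozygous stabilized beta-catenin, and aC3 is 1 clone of it in which Bmal1 was knocked out with CRISPR. The groups are aC3-EV, aC3-WT (wild-type Bmal1) and aC3-dHLH, which all share this Bmal1-null background and were transduced with lentivirus and sorted for GFP. dHLH-Bmal1 lacks the basic helix-loop-helix domain that binds DNA. Libraries were chosen by their labels, and no measured value entered the choice. The knockout rests on 1 clone, and the time of harvest is not given in the sources used here. The study describes the EV, WT and dHLH lines of aC3 as made from cells with a luciferase reporter under the Bmal1 promoter.

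Bmal1 and Clock form a heterodimer that binds E-box sequences and activates the Period, Cryptochrome and Rev-erb genes together with the PAR bZIP factors Dbp and Tef. Period and Cryptochrome proteins inhibit the heterodimer, and the Rev-erb receptors (Nr1d1, Nr1d2) repress genes that carry ROR elements, such as Bmal1 itself, Cry1 and Nfil3, on which the Ror receptors activate. A Bmal1 protein without its DNA-binding domain can still pair with Clock, and in cells that have their own Bmal1 it inhibits the clock. In a Bmal1-null cell there is no endogenous Bmal1 for it to displace, so the comparison asks what the protein does to transcripts where only Clock and other partners are left.

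Counts per library ranged from 3643332 to 22970049 over the series and from 9347467 to 11006516 in the 6 aC3 libraries. Levels are normalised CPM (counts scaled to library size), fold changes are on the log2 scale with the standard error (SE) of the fit, and a gene was called at an edgeR adjusted p under 0.05, quoted below as the adjusted p. Permuting 2 libraries against 2 gives a smallest possible p of 0.333 (two-sided), so no such test was run. Nothing in the labels says that the 2 libraries of a group are separate cultures, so the p-values measure the spread between these libraries, which may be technical. The melanocyte markers Sox10, Pax3 and Mitf were present, with 4758 to 6220 counts of Sox10 in a library, whereas Dct, Tyrp1 and Mlana were at 0 in all 6 aC3 libraries and Pmel and Tyr did not pass 4 counts. Of the other cell types considered, the 3 keratinocyte markers were at 0, the 6 immune markers summed to 0 to 5 counts with EV and to 2 in each dHLH-Bmal1 library, and the endothelial markers summed to 75 to 82 counts with EV and 86 to 116 with dHLH-Bmal1, nearly all of them from Pecam1. In bulk RNA, fewer cells of a type and less RNA per cell cannot be told apart.

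The Bmal1 gene, listed as Arntl (ENSMUSG00000055116; mm10 chromosome 7, 113207465 to 113314126), had 34.0 and 31.4 CPM in aC3-EV, 18.7 and 18 CPM in aC3-WT, and 46.1 and 32.5 CPM in aC3-dHLH. The dHLH libraries lay above both wild-type libraries and 1 of them lay close to EV. Against EV the log2 fold change was 0.27 (SE 0.15, adjusted p = 0.27), which did not pass the test, and against WT it was 1.10 (SE 0.16, adjusted p = 0.0029). The value against EV rested on single libraries, at -0.018 without dHLH replicate 1 and 0.49 (adjusted p = 0.018) without dHLH replicate 2. A 3′ tag does not check the CRISPR edit, and tags from the edited gene and from the construct cannot be told apart here.

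A small number of clock genes differed with dHLH-Bmal1 in the null cells. The Rev-erb genes Nr1d1 and Nr1d2 and the Period gene Per3 fell below the EV level, Cry1 rose by 1.12 on the log2 scale, and Rora and Cry2 rose, while Dbp, Tef and Per2 did not pass the test. Each of Cry1, Nr1d2 and Per3 is shown by its promoter because all moved in the same libraries, Cry1 up and the others down. The sequences run from 250 bases before to 50 bases after the start of the gene, from RefSeq on GRCm38.p6, 5′ to 3′ on the gene's own strand, and capitals mark the E-box CACGTG in Cry1 and the D-box TTATGNAA, the site of PAR bZIP factors and Nfil3, in Per3. The 3 lie at chr10:85185005-85185304, chr14:18239057-18239356 and chr4:151044616-151044915, all on the minus strand.
Cry1: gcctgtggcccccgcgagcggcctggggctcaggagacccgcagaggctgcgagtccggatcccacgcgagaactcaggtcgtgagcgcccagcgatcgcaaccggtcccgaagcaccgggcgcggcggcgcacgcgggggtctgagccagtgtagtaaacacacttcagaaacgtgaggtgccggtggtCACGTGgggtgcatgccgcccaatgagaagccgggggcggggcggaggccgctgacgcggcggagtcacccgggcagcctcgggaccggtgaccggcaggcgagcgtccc
Nr1d2: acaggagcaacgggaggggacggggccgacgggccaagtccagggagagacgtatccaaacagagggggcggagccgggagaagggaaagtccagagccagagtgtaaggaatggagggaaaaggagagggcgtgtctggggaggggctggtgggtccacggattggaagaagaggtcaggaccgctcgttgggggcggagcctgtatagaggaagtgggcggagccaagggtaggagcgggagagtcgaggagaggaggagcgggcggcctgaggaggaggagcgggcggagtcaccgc
Per3: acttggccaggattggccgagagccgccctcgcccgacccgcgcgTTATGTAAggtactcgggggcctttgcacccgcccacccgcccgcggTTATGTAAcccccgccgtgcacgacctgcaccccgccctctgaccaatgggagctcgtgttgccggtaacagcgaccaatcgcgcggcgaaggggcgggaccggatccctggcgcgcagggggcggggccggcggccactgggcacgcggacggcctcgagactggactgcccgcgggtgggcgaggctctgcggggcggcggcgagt

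The E-box of Cry1 begins 60 bases before the start, and the D-boxes of Per3 begin 205 and 158 bases before it. Searched on both strands, CACGTG is in 7.15% of the 32851 promoters of the table, TTATGNAA in 3.38% and the ROR element core TAGGTCA in 2.61%. Of 15 clock genes with a promoter in the table, 5 hold CACGTG, which are Cry1, Per1, Tef, Bhlhe41 and Ciart, and none of the windows of Nr1d1, Nr1d2 and Dbp holds any of the 3 motifs. Nfil3 holds a ROR core 12 bases before its start, and the second of the promoters listed for Arntl holds one 30 bases after its start. These matches describe letters in windows of 300 bases and say nothing of the factor.

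Among the repressors of the REV-ERB loop, Nr1d2 (ENSMUSG00000021775) had 19.9 and 23.1 CPM in aC3-EV, 63.2 and 64.5 CPM in aC3-WT, and 5.18 and 5.50 CPM in aC3-dHLH. The 3 groups did not overlap, with dHLH-Bmal1 lowest. Nr1d2 fell by 2.01 on the log2 scale against EV (SE 0.15, adjusted p = 1.6e-05) and by 3.58 against WT (SE 0.14, adjusted p = 4.8e-09). It is called in every fit that leaves out 1 library. Nr1d1, which encodes Rev-erb alpha, had 1.93 and 2.2 CPM in EV, 11.2 and 13.4 in WT, and 0.498 and 0.660 in dHLH. Its fold change against EV was -1.82 (SE 0.44, adjusted p = 0.017) and against WT -4.39 (SE 0.36, adjusted p = 1.6e-05). At these few counts the call against EV ends without dHLH replicate 1 (-1.64, adjusted p = 0.076), without EV replicate 1 (-1.92, adjusted p = 0.051) and without EV replicate 2 (-1.73, adjusted p = 0.11). Rora, an activator at the same elements, had 14.5 and 14.1 CPM in EV, 25.3 and 22.8 in WT, and 24.4 and 22.8 in dHLH. It rose by 0.72 against EV (SE 0.14, adjusted p = 0.0058, and 0.071 without EV replicate 2) and differed from WT by -0.03 (SE 0.14). Rorb had 198 and 176 CPM in EV and 157 and 152 in dHLH, a change of -0.28 that did not pass (adjusted p = 0.055).

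**Figure D1:**
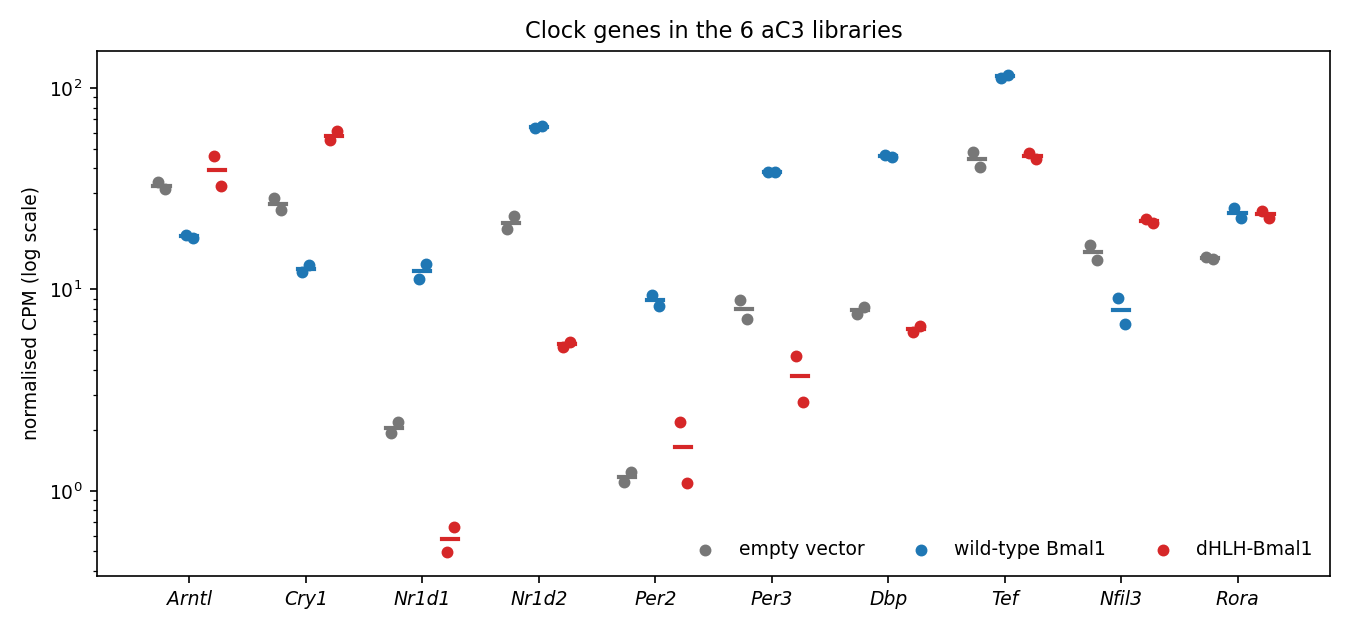
Normalised CPM on a log axis for 10 clock genes in the 2 EV, 2 wild-type and 2 dHLH-Bmal1 libraries of aC3, with points for libraries and bars for group means. Nr1d2 is lowest with dHLH-Bmal1 at 5.18 and 5.50 CPM and Cry1 is highest there at 55.0 and 60.9 CPM, whereas Dbp and Tef with dHLH-Bmal1 lie near EV and below wild-type Bmal1.

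Cry1, a core inhibitor of the Bmal1-Clock dimer, had 28.3 and 24.8 CPM in aC3-EV, 12.2 and 13.2 CPM in aC3-WT, and 55.0 and 60.9 CPM in aC3-dHLH. The order was the reverse of that of Nr1d2, and again no group overlapped another. The rise was 1.12 against EV (SE 0.12, adjusted p = 0.00013) and 2.19 against WT (SE 0.13, adjusted p = 3.5e-07), called in every fit that leaves out 1 library. Per3 had 8.83 and 7.16 CPM in EV, 38.1 and 38.2 in WT, and 4.68 and 2.75 in dHLH. Its fold change was -1.09 against EV (SE 0.24, adjusted p = 0.011, and 0.084 without EV replicate 1) and -3.34 against WT (SE 0.21, adjusted p = 7.6e-07). Cry2, the second cryptochrome, had 15.5 and 10.9 CPM in EV and 20.8 and 19.9 in dHLH, a rise of 0.62 (SE 0.19, adjusted p = 0.046). That call ends without dHLH replicate 1 (0.58, adjusted p = 0.14), without dHLH replicate 2 (0.65, adjusted p = 0.064) and without EV replicate 2 (0.39, adjusted p = 0.36).

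Dbp, Tef, Per2 and Nfil3 did not pass the test against EV. Dbp, a PAR bZIP activator, had 7.54 and 8.21 CPM in EV, 46.5 and 45.4 in WT, and 6.18 and 6.60 in dHLH. The dHLH libraries lay just under EV (-0.30, SE 0.17, adjusted p = 0.30) and far under WT (-2.85, SE 0.15, adjusted p = 1.3e-07). Tef, of the same family, had 48.1 and 40.8 CPM in EV, 112 and 117 in WT, and 47.6 and 44.6 in dHLH, so that it was at the EV level (0.05, SE 0.11, adjusted p = 0.80) and below WT (-1.31, adjusted p = 9.6e-06). Per2 had 1.10 and 1.24 CPM in EV, 9.38 and 8.26 in WT, and 2.19 and 1.10 in dHLH. Its libraries with dHLH-Bmal1 overlapped those with EV (0.50, adjusted p = 0.52) and not those with WT (-2.40, SE 0.36, adjusted p = 0.0052, and 0.10 without WT replicate 1). Nfil3, a repressor that competes at D-boxes, had 16.6 and 14.0 CPM in EV, 9.09 and 6.78 in WT, and 22.3 and 21.3 in dHLH, which was 0.51 above EV (SE 0.18, adjusted p = 0.081) and 1.45 above WT (adjusted p = 0.0020). Npas2, a paralog of Clock, had 4 and 0 counts in EV, 0 and 0 in WT, and 18 and 13 in dHLH, at least 10.7-fold higher than WT when the WT group is set to 3 counts, with adjusted p-values of 0.058 against EV and 0.061 against WT. Clock itself differed from EV by 0.11 (SE 0.11, adjusted p = 0.59).

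Over all genes, 1501 of 13790 tested (10.9%) differed between dHLH-Bmal1 and EV in aC3. Higher were 661 (4.79%) and lower 840 (6.09%), the median log2 fold change of all genes was 0.011, and 3538 had an unadjusted p under 0.05. Most changes were small, with a median of 0.54 for rises and -0.51 for falls, and 91 rises and 74 falls reached 1 on the log2 scale. Among 33 tested members of the 4 clock lists, Cry1, Cry2 and Rora were called higher and Nr1d1, Nr1d2, Per3 and Tars lower, 7 in all. Tars, a tRNA synthetase gene listed with the outputs, fell by 0.46 (124 and 119 CPM in EV, 82.6 and 93.4 in dHLH, adjusted p = 0.0071, and 0.071 or 0.065 without EV replicate 1 or 2). Of the 1501, 206 (84 higher, 122 lower) were called in each of the 4 fits that leave out 1 of the compared libraries, and 198 of these also by DESeq2. The count was 606 without EV replicate 1 and 262 without EV replicate 2, 1057 and 2016 without dHLH replicates 1 and 2, 917 by DESeq2, and 160 when all 40 libraries shared 1 fit. Protein-coding genes gave 577 rises and 777 falls of 11476, and pseudogenes 16 and 20 of 372.

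**Figure D2:**
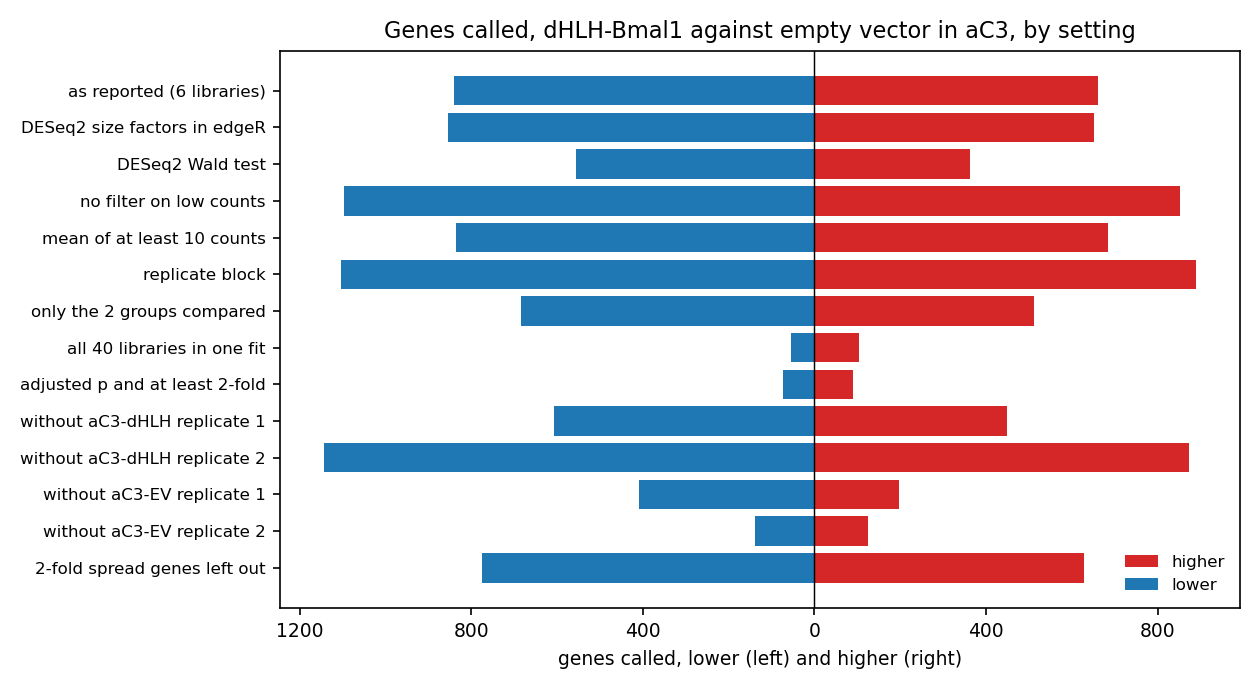
Number of genes called higher (right) and lower (left) with dHLH-Bmal1 against EV in aC3 under each setting, with the reported fit of 6 libraries giving 661 and 840. The fewest were called in 1 fit of all 40 libraries (105 and 55), with a 2-fold minimum (91 and 74) and without EV replicate 2 (124 and 138).

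The direct comparison with wild-type Bmal1 gave far fewer calls, 121 of the same 13790 genes (0.877%), with 60 higher (0.435%) and 61 lower (0.442%) with dHLH-Bmal1, and 1638 at an unadjusted p under 0.05. Wild-type Bmal1 against EV gave 1544 calls (11.2%) in the same fit, and since both constructs are set against the same 2 EV libraries, the overlap of those lists is not given. The count against WT was 31 and 39 without WT replicates 1 and 2, 131 and 368 without dHLH replicates 1 and 2, and 18 in 1 fit of 40 libraries, and 19 genes were called in all of the fits without 1 library. Clock genes were 7 of the 16 that the naming rule gave here, Cry1, Nfil3, Nr1d1, Nr1d2, Per3, Dbp and Per2. Among the others, Osbp2, an oxysterol-binding protein, had 6.71 and 6.20 CPM in EV, 7.25 and 10.4 in WT, and 24 and 24.3 in dHLH. It stood above both groups, by 1.90 against EV (SE 0.20, adjusted p = 0.00013) and 1.46 against WT (SE 0.20, adjusted p = 0.0025). Col15a1, a basement membrane collagen, had 5.79 and 4.49 CPM in EV, 22.1 and 25.7 in WT, and 5.88 and 4.18 in dHLH, so that it was at the EV level (-0.03) and below WT (-2.24, SE 0.23, adjusted p = 0.00016). Inpp4b, a phosphoinositide phosphatase that overlaps 3 other genes, had 1.2 and 1.15 CPM in EV, 13.1 and 10.1 in WT, and 2.29 and 1.43 in dHLH (-2.62 against WT, SE 0.32, adjusted p = 0.0012). Ccnjl was higher than WT by 1.55, Gstm7 by 1.54 and Kcna1, a potassium channel, by 2.14, the last with an adjusted p of 0.020 that became 0.17 without WT replicate 2.

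Among the named genes, rises against EV included those of Aqp1, Cp, Ndrg2 and Atp1b2. Aqp1, a water channel, had 14.3 and 13.2 CPM in EV, 57.5 and 57.8 in WT, and 49.6 and 39.5 in dHLH. The dHLH libraries lay 1.7 above EV (SE 0.14, adjusted p = 1.6e-05) and 0.37 below WT (adjusted p = 0.21). Cp, the copper-binding ferroxidase ceruloplasmin, had 4.69 and 3.53 CPM in EV, 20.2 and 17.3 in WT, and 14.8 and 13.2 in dHLH, a rise of 1.77 (SE 0.22, adjusted p = 0.00046). Ndrg2 had 2.85 and 3.63 CPM in EV and 10.5 and 12.8 in dHLH, a rise of 1.84 (SE 0.28, adjusted p = 0.0011). Atp1b2, a beta subunit of the sodium pump, had 3.95 and 5.44 CPM in EV and 12.3 and 12.9 in dHLH, a rise of 1.42 (SE 0.23, adjusted p = 0.0018). All 4 genes are called with any 1 of the compared libraries left out, as are Pik3ip1, an inhibitor of PI3 kinase (2.16, SE 0.36), and Hid1 (1.46, SE 0.20). The calls of Fam129a, Nsun7 and Chrng, with rises of 1.52, 1.49 and 1.65, end without dHLH replicate 1, EV replicate 1 or EV replicate 2. Ugt1a8 had 0 and 4.1 CPM in EV and 22.3 and 6.05 in dHLH, shares its locus with 18 other annotated genes, and is uncertain. So is Hmga1b (213 and 54.4 CPM in EV, 417 and 765 in dHLH), whose sequence is close to that of Hmga1. The call of Ugt1a8 is lost without dHLH replicate 1 or EV replicate 1 (adjusted p = 0.23 and 0.11), and that of Hmga1b without dHLH replicate 2 or EV replicate 2 (0.064 and 0.17).

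Among falls, Gda, the guanine deaminase, had 7.63 and 8.78 CPM in EV, 1.45 and 1.27 in WT, and 0.0996 and 0 in dHLH. That is 175 counts in EV against 1 in dHLH, a ratio of 157 with a 95% exact counting interval of 27.8 to 6228 (adjusted p = 4.8e-05). Raet1d, a ligand of the NKG2D receptor in a family of close copies and so uncertain, had 6.25 and 5.92 CPM in EV, 0 and 1.69 in WT, and 0 and 0 in dHLH, at least 38.8-fold lower than EV when the dHLH group is set to 3 counts. Snrpf, a core protein of spliceosomal snRNPs, had 33.3 and 40.5 CPM in EV, 27.9 and 24.2 in WT, and 11 and 13.4 in dHLH, a fall of 1.6 against EV (SE 0.15, adjusted p = 6.9e-05) and of 1.10 against WT (adjusted p = 0.0031, and 0.060 without WT replicate 1). Pmpcb, a subunit of the mitochondrial processing peptidase, fell by 1.43 (20.9 and 35.2 CPM in EV, 9.96 and 10.9 in dHLH, SE 0.24, adjusted p = 0.0022). Amd2 and Rps12-ps3, which share sequence with Amd1 and Rps12, fell by 1.44 and 2.26 and are uncertain. Snrpf, Pmpcb, Amd2, Rps12-ps3, Pfn1 and Ccl7 belong to a set of genes that also split the replicates of another group. Among 410 tested genes that were at least 2-fold higher in replicate 1 than in replicate 2 of YUMM2.1-dHLH, 127 fell in aC3 (31.0%) and 3 rose, with a median of -0.37, against 687 falls (6.39%) among 10746 other genes of similar minimum count. Without the genes that split those replicates in either direction 1404 were called, 629 higher and 775 lower, and their part in the result was not tested. Pfn1, the actin-binding profilin, fell by 1.66 (11.2 and 21.2 CPM in EV, 5.38 and 4.84 in dHLH, adjusted p = 0.0026, and 0.059 without EV replicate 2).

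Part of the replication and mitosis genes were lower with dHLH-Bmal1. Of 38 tested members of the cell cycle list, 16 fell and 0 rose against a background of 6.09% falls over all genes, and the list's median was -0.32. Mcm4, of the MCM replicative helicase, had 69.9 and 74.5 CPM in EV, 45.4 and 34.5 in WT, and 32.7 and 29.2 in dHLH, a fall of 1.22 (SE 0.13, adjusted p = 0.00013). Mcm2 had 103 and 115 CPM in EV and 60.3 and 74.3 in dHLH (-0.70, SE 0.11, adjusted p = 0.0013). Ccna2, cyclin A2, had 102 and 103 CPM in EV and 59.9 and 69.5 in dHLH (-0.67, SE 0.10, adjusted p = 0.00089). These 3 are called with any 1 of the compared libraries left out, while Aurkb, a mitotic kinase, fell by 0.86 with its call lost without EV replicate 2 (-0.67, adjusted p = 0.10). Mcm3, Mcm5, Mcm6, Cdc6, Cdt1, Pcna, Rrm1 and Rrm2, all of DNA replication or nucleotide supply, also fell. The number lower was 10 without EV replicate 1, 7 without EV replicate 2, 22 without dHLH replicate 2, 4 in 1 fit of 40 libraries and 17 without the genes that split the YUMM2.1-dHLH replicates, to which Mcm4 and Aurkb belong. Against WT 0 members were called (median -0.033), with Mcm4 0.37 lower (SE 0.13, adjusted p = 0.26).

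**Figure D3:**
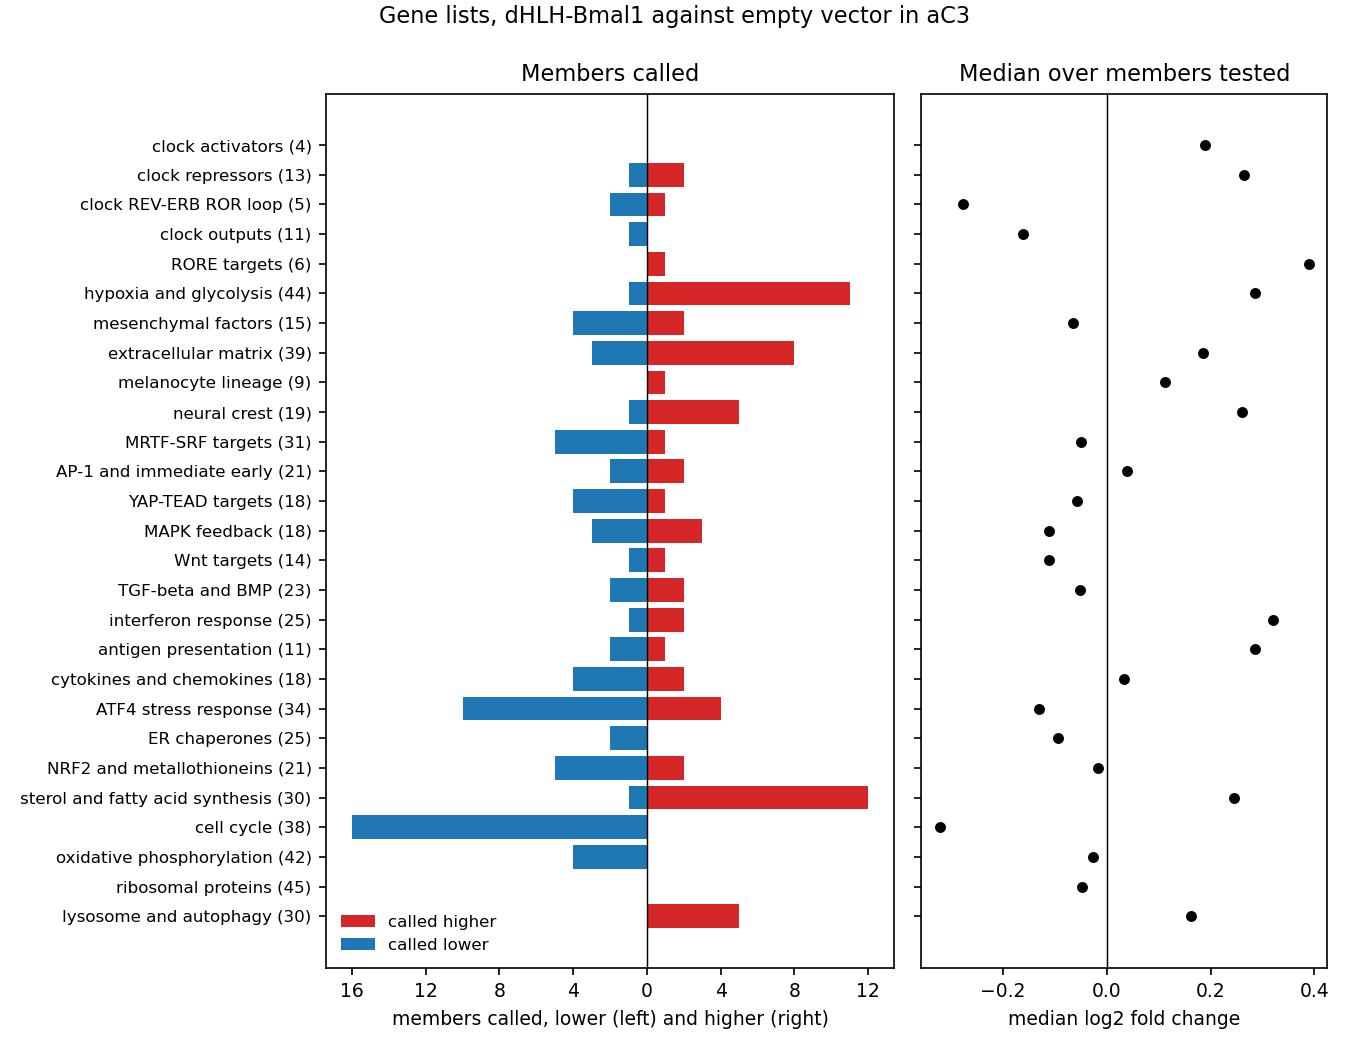
Members called higher or lower with dHLH-Bmal1 against EV in aC3 (left) and median log2 fold change of the members tested (right) for 27 gene lists, with the number tested in brackets. The sterol and hypoxia lists have the most rises (12 and 11) and the cell cycle list the most falls (16), while the ribosomal protein list of 45 has none.

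Some sterol and fatty acid synthesis genes, the targets of SREBP factors, were higher. Of 30 tested, 12 rose and 1 fell, against 4.79% and 6.09% of all genes, with a median of 0.25. Scd1, the stearoyl-CoA desaturase, had 228 and 224 CPM in EV, 336 and 327 in WT, and 369 and 310 in dHLH, a rise of 0.59 (SE 0.09, adjusted p = 0.0016). Insig1, which holds the SREBP processing complex in the ER, had 61.0 and 62.5 CPM in EV and 86.1 and 87.6 in dHLH (0.49, SE 0.09, adjusted p = 0.0042, and 0.060 or 0.062 without EV replicate 1 or 2). Mvd and Dhcr7 of the sterol pathway rose by 0.50 and 0.48, with calls lost without either EV library and, for Mvd, dHLH replicate 2 (0.065) or, for Dhcr7, dHLH replicate 1 (0.092), and Fasn, Acly, Acaca, Hmgcs1, Fdft1, Nsdhl, Msmo1 and Stard4 by 0.32 (Msmo1) to 0.47 (Nsdhl). The 1 fall was Srebf1, the factor itself, at -0.41. Srebf1 is among the genes that split the YUMM2.1-dHLH replicates, and 0 members fell by DESeq2 or in 1 fit of 40 libraries. The number higher was 2 without EV replicate 1, 1 without EV replicate 2, 8 without dHLH replicate 1 and 2 in 1 fit of 40 libraries, and 0 members were called against WT (median 0.092).

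Some hypoxia and glycolysis genes were higher. Of 44 tested, 11 rose and 1 (the glucose transporter Slc2a3, -0.34) fell, against 4.79% and 6.09% of all genes, 32 were not called, and the median was 0.28. Ddit4, an inhibitor of mTORC1, had 72.5 and 63.5 CPM in EV, 112 and 119 in WT, and 135 and 128 in dHLH, a rise of 0.95 (SE 0.09, adjusted p = 7.5e-05). Ero1l, an oxidase of the ER, had 73.9 and 72.9 CPM in EV, 130 and 117 in WT, and 134 and 127 in dHLH (0.83, SE 0.09, adjusted p = 0.00013). Tgfbi rose by 0.74 (SE 0.11, adjusted p = 0.00093) and Mxi1, an antagonist of Myc, by 0.85 (SE 0.16, adjusted p = 0.0050, and 0.057 without EV replicate 2). Bnip3, Eno2, Vegfa, Gbe1, Pdk1, Gapdh and Pfkl also rose, and Vegfa (0.60) lost its call without dHLH replicate 1, EV replicate 1 or EV replicate 2. Hif1a, which overlaps 2 other genes, had 104 and 103 CPM in EV and 92.8 and 87.4 in dHLH (-0.20, adjusted p = 0.16). The number higher was 5 without EV replicate 1, 4 without EV replicate 2, 15 without dHLH replicate 1 and 5 in 1 fit of 40 libraries. Against WT 1 member was called, Bnip3l (-0.38), and the median was -0.059.

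Amino acid genes under ATF4 control were split. Of 34 tested, 10 fell and 4 rose, against 6.09% and 4.79% of all genes, with a median of -0.13. The falls were genes of serine and amino acid supply. Psph, the last enzyme of serine synthesis, had 20.6 and 24 CPM in EV, 12.8 and 13.6 in WT, and 8.97 and 9.68 in dHLH (-1.26, SE 0.17, adjusted p = 0.00071). Slc7a5, the large neutral amino acid transporter, had 26.3 and 32.5 CPM in EV, 11.9 and 13 in WT, and 13.7 and 12.8 in dHLH (-1.15, SE 0.16, adjusted p = 0.00073). Asns, Psat1, Phgdh, Shmt2, Slc7a1, Slc3a2 and Mthfd2 fell by 0.32 (Mthfd2) to 0.50 (Asns), and Aldh18a1 by 1.16, a call lost without dHLH replicate 2 or EV replicate 2 (adjusted p = 0.080 and 0.28). The rises were Ddit4, Ddit3, Gpt2 and Atf5. Psph, Slc7a5 and Aldh18a1 are among the genes that split the YUMM2.1-dHLH replicates, and without that set 8 members were lower. The number lower was 6 without EV replicate 1, 2 without EV replicate 2, 6 without dHLH replicate 1 and 0 in 1 fit of 40 libraries. Against WT 1 member was called, the factor Atf5 (0.47), with a median of 0.097.

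Lineage and matrix genes changed modestly, and their counts stand against 4.79% of all genes higher and 6.09% lower. In the neural crest list 5 of 19 tested rose and 1 fell, with a median of 0.26, and 1 rose without EV replicate 1 or without EV replicate 2. Sox10, the neural crest and melanocyte factor, had 465 and 454 CPM in EV, 560 and 569 in WT, and 620 and 564 in dHLH, a rise of 0.37 (SE 0.09, adjusted p = 0.015, and 0.11 or 0.17 without EV replicate 1 or 2). S100b had 126 and 127 CPM in EV, 275 and 296 in WT, and 181 and 227 in dHLH (0.68, SE 0.10, adjusted p = 0.0011). It lay between the groups, 0.49 below WT (adjusted p = 0.037, which is lost without dHLH replicate 1, WT replicate 1 or WT replicate 2 at 0.067, 0.18 and 0.31). Foxd3 fell by 0.64 (adjusted p = 0.044), a call lost without dHLH replicate 1 (0.065), dHLH replicate 2 (0.11) or EV replicate 2 (0.50), and the pigment regulator Mitf differed by 0.11 (adjusted p = 0.75). Of 22 melanocyte genes listed, 9 could be tested and only Sox10 was called. In the matrix list 8 of 39 rose and 3 fell (median 0.19), but 4 rose without EV replicate 1, 2 rose and 0 fell without EV replicate 2, and 2 rose and 0 fell in 1 fit of 40 libraries. Tnc, the glycoprotein tenascin C, had 14.5 and 13.5 CPM in EV, 18.7 and 13.9 in WT, and 31.6 and 36.3 in dHLH. It stood above EV by 1.28 (SE 0.16, adjusted p = 0.00048) and above WT by 1.06 (SE 0.16, adjusted p = 0.0047, and 0.069 without WT replicate 2). Mgp, an inhibitor of calcification, had 0.552 and 0.764 CPM in EV, 10.5 and 7.30 in WT, and 2.89 and 1.43 in dHLH, and its rise of 1.71 (adjusted p = 0.044) is lost without dHLH replicate 1, EV replicate 1 or EV replicate 2 (adjusted p = 0.30, 0.21 and 0.15).

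In the mesenchymal list 2 of 15 rose and 4 fell (median -0.065), while 0 rose and 1 fell without EV replicate 1 or without EV replicate 2, 2 fell without dHLH replicate 1, and 0 were called in 1 fit of 40 libraries. These counts stand against 4.79% of all genes higher and 6.09% lower. Fosl1, an AP-1 subunit, had 67.9 and 76.7 CPM in EV, 28.6 and 24.1 in WT, and 36.8 and 36.8 in dHLH, a fall of 0.97 (SE 0.11, adjusted p = 0.00030). Twist1 fell by 0.65 (adjusted p = 0.046) with its call lost without dHLH replicate 1 (0.24), EV replicate 1 (0.072) or EV replicate 2 (0.31). Zeb1 and Zeb2, which overlap 3 and 5 other genes, rose by 0.47 each, and both calls end without either EV library (adjusted p = 0.13 and 0.11 for Zeb1, 0.059 and 0.073 for Zeb2). Sox9 had 3.31 and 4.49 CPM in EV, 9.38 and 10.4 in WT, and 5.68 and 6.71 in dHLH. These libraries lay between the other groups without passing either test (0.67 against EV, SE 0.27, adjusted p = 0.13, and -0.67 against WT, SE 0.25, adjusted p = 0.27). Tgfb2, a TGF-beta ligand, had 44.1 and 45.7 CPM in EV, 133 and 131 in WT, and 88.0 and 68.9 in dHLH. It passed both tests, 0.81 above EV (SE 0.11, adjusted p = 0.00075) and 0.75 below WT (SE 0.11, adjusted p = 0.0030, and 0.051 without WT replicate 1). Etv5, an ERK output gene, rose from 148 and 146 to 216 and 213 CPM (0.54, SE 0.08, adjusted p = 0.0010).

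The counts of the remaining lists stand against 4.79% of all genes higher and 6.09% lower. The lysosome and autophagy list had 5 of 30 higher and 0 lower (median 0.16), which were Npc2, Map1lc3b, Ctsd, Wipi1 and Grn, led by the progranulin gene Grn at 93.7 and 96.7 CPM in EV and 132 and 155 in dHLH (0.59, SE 0.10, adjusted p = 0.0025). Without EV replicate 1 the count was 2 and without EV replicate 2 it was 1. In the MRTF-SRF list of actin genes 1 of 31 rose and 5 fell (median -0.049), and 0 fell without EV replicate 2. Its members Myh9, with 623 and 590 CPM in EV and 624 and 576 in dHLH, and Srf differed from EV by -0.02 and -0.06 (adjusted p = 0.93 and 0.81). In the NRF2 list 5 of 21 fell, which were Gsr, Txn1, Gclc, Gclm and Txnrd1, with Gclc, of glutathione synthesis, at -0.70 (24.5 and 26.3 CPM in EV, 15.8 and 15.4 in dHLH, adjusted p = 0.0083, and 0.092 without EV replicate 2), while the metallothionein Mt1 rose by 0.50 (adjusted p = 0.0080, and 0.12 without EV replicate 1). Among MHC class I genes, Tapbp, the peptide-loading chaperone tapasin, rose by 0.98 (24.2 and 20.3 CPM in EV, 43.9 and 44.2 in dHLH, SE 0.14, adjusted p = 0.00089) and H2-T23, a nonclassical class I gene, fell by 0.53 (SE 0.09, adjusted p = 0.0018), both called with any 1 of the compared libraries left out. In the cytokine and chemokine list 2 of 18 rose, Il33 (0.39) and Vegfa (0.60), and 4 fell, Lif, Kitl, Ccl2 and Ccl7 (median 0.034). The chemokine genes Ccl2 and Ccl7 fell by 0.95 and 1.7, and Ccl2 had 24.7 and 27.7 CPM in EV, 10.8 and 13.8 in WT, and 14.4 and 12.6 in dHLH. Both are among the genes that split the YUMM2.1-dHLH replicates, and both calls are lost without EV replicate 2 (adjusted p = 0.051 and 0.10). The signalling lists were divided. MAPK feedback genes had 3 rises and 3 falls of 18, but 1 and 2 without EV replicate 1 and 1 and 1 without EV replicate 2. There were 2 rises and 2 falls of 21 AP-1 genes, 1 and 4 of 18 YAP-TEAD targets, 1 and 1 of 14 Wnt targets, and 2 and 2 of 23 TGF-beta genes. Interferon genes had 2 rises and 1 fall of 25, but 19 of the 25 had fold changes above 0, with a median of 0.32. ER chaperones had 0 rises and 2 falls of 25 (Xbp1 and Manf). Oxidative phosphorylation genes had 0 rises and 4 falls of 42, and ribosomal protein genes 0 of 45 in either direction. Txn1, Manf, Ndufb3 and Sdhc among these falls are also genes that split the YUMM2.1-dHLH replicates. Of the ER chaperone and oxidative phosphorylation falls, DESeq2 called Manf and Ndufa4 but not Xbp1, Ndufb3, Sdhc or Uqcrfs1.

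The effect of dHLH-Bmal1 was then set against that in parental YUMM2.1 cells, which keep their Bmal1, in 1 fit of 8 libraries with the test of the difference (aC3 minus YUMM2.1). In that experiment the labels of YUMM2.1-EV replicate 2 and YUMM2.1-WT replicate 1 may be exchanged. Sox9 was at 19.5 and 88.9 CPM, scaled to library totals, in the libraries labelled YUMM2.1-EV and at 20.3 and 87.8 in those labelled YUMM2.1-WT. It was thus lower in both libraries labelled replicate 1 and higher in both labelled replicate 2. Whether an exchange or a difference shared by replicate number accounts for this was not tested. Values are therefore also given with the labels exchanged, without YUMM2.1-EV replicate 2, and with libraries of YUMM2.1 cells that carry a control hairpin (shNC). The difference passed the test for 1248 of 14435 genes (8.65%), above 0 for 764 (5.29%) and below for 484 (3.35%), with 3301 at an unadjusted p under 0.05. With the labels exchanged the count was 2479, without YUMM2.1-EV replicate 2 it was 1478, with shNC 2518, and without aC3 libraries 496 to 702. In YUMM2.1, 2643 genes (18.3%) were called, 1394 higher (9.66%) and 1249 lower (8.65%). In this fit only 5 effects in aC3 passed, those of Nr1d2, Tnc, Mxd4, Rnu3a and Gm14036, so that counts in the 2 lines are not to be compared. Of the 1248 genes, 1136 were also called in YUMM2.1, 1159 had the larger effect there, and 1021 had estimates of opposite sign. The test of the difference picked these genes and itself favours opposite signs, and the share over all 14435 genes is not given. Since aC3 is 1 knockout clone and YUMM2.1 the uncloned line, loss of Bmal1 and clonal identity cannot be told apart in any of these differences.

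Against YUMM2.1-EV, the clock genes Cry1, Nr1d2, Per3 and Nr1d1 did not pass the test of a difference, and with shNC libraries Nr1d2 did. Cry1 changed by 1.12 in aC3 and 1.15 in YUMM2.1, where it had 12.5 and 19.0 CPM with EV and 26.7 and 43.0 with dHLH-Bmal1 (difference -0.03, SE 0.36, adjusted p = 0.98). Nr1d2 changed by -2.01 and -1.48 (difference -0.54, SE 0.27, adjusted p = 0.28), Per3 by -1.10 and -1.16 (difference 0.06, SE 0.38) and Nr1d1 by -1.83 and -2.14 (difference 0.32, SE 0.58). A p that misses the threshold does not show that the effects are equal. With shNC libraries in place of YUMM2.1-EV and YUMM2.1-dHLH, the log2 fold change with dHLH-Bmal1 was -0.30 for Nr1d2 (SE 0.14, adjusted p = 0.089), -0.48 for Per3 (SE 0.24, adjusted p = 0.12), -1.27 for Nr1d1 (SE 0.29, adjusted p = 0.0016) and 0.80 for Cry1 (SE 0.15, adjusted p = 0.00015). The difference from aC3 was then -1.73 for Nr1d2 (SE 0.23, adjusted p = 3.7e-05), which passed, and -0.62 for Per3, -0.57 for Nr1d1 and 0.31 for Cry1, which did not (adjusted p = 0.34, 0.56 and 0.27). Scaled to library totals, Nr1d2 was at 74.2 and 70.0 CPM in YUMM2.1-EV but at 34.3 and 35.5 in YUMM2.1-EV-shNC. It was at 27.2 and 18.9 CPM in YUMM2.1-dHLH and 26.6 and 30.1 in YUMM2.1-dHLH-shNC, so mainly the EV level differed between these sets. Tef and Dbp passed the test of a difference against YUMM2.1-EV. They fell in YUMM2.1, where Tef went from 98.2 and 110 CPM with EV to 51.8 and 51.5 with dHLH-Bmal1. Tef had a difference of 1.06 (SE 0.18, adjusted p = 0.0085, and 0.060 without aC3-EV replicate 2) and Dbp of 1.17 (SE 0.27, adjusted p = 0.029). The Dbp call was lost without any 1 of the 4 aC3 libraries, without YUMM2.1-dHLH replicate 2 and without YUMM2.1-EV replicate 1, at adjusted p-values of 0.059 to 0.13. With shNC libraries the differences were 0.0030 for Tef and -0.33 for Dbp. Scaled to library totals, Dbp was at 28.0 and 26.1 CPM in YUMM2.1-EV and 12.4 and 8.66 in YUMM2.1-EV-shNC. It was at 9.23 and 8.01 CPM in YUMM2.1-dHLH and 10.5 and 10.4 in YUMM2.1-dHLH-shNC. Nfil3 rose by 1.96 in YUMM2.1, where EV held 5.57 and 4.95 CPM (difference -1.46, SE 0.29, adjusted p = 0.016, lost without any 1 of the aC3 libraries at 0.052 to 0.095). With shNC it rose by 0.67 and the difference was -0.18 (adjusted p = 0.68). Arntl and Rorb also passed the test of a difference against YUMM2.1-EV, at -1.30 for Arntl and 1.31 for Rorb. With 1 library left out the ranges were -1.55 to -0.99 and 1.25 to 1.42, and with shNC the differences were -0.37 and 1.81. Of 40 named genes with a called difference, 8 lost the call with shNC and 1 more, Dbp, changed sign.

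**Figure D4:**
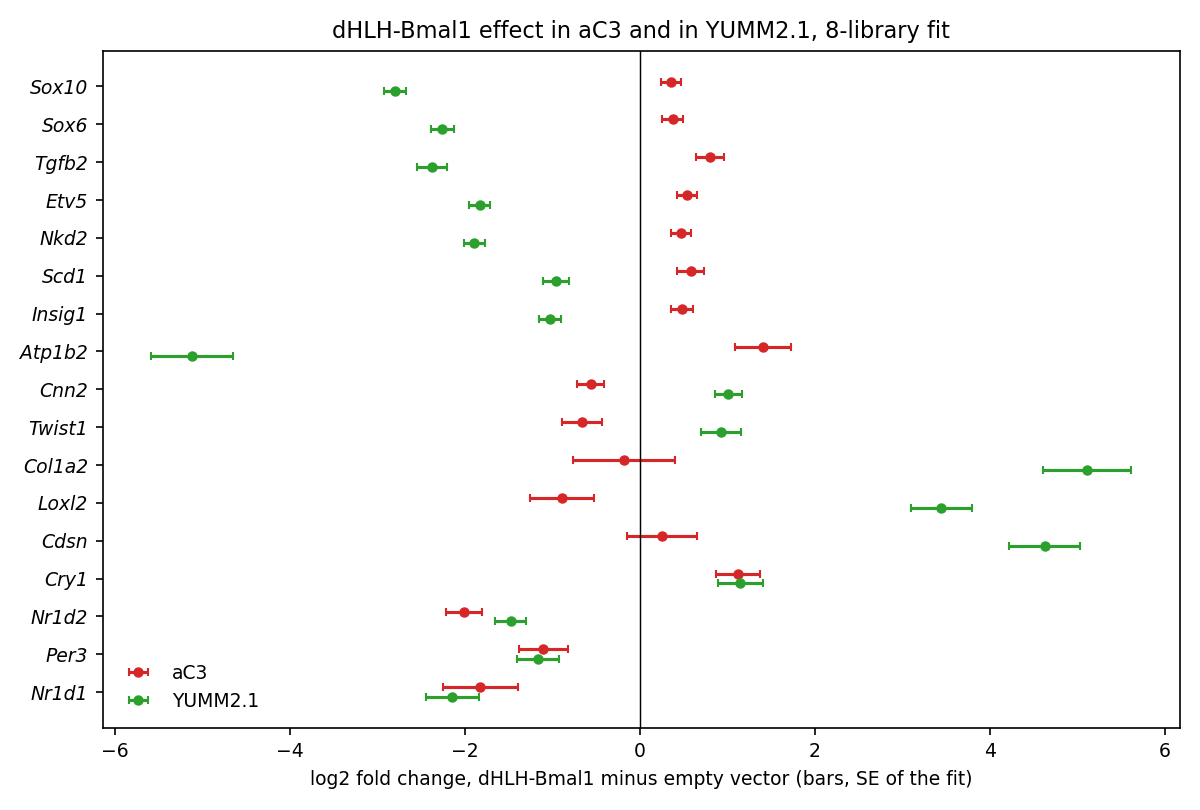
Log2 fold changes of dHLH-Bmal1 against EV for 17 named genes in aC3 (red) and YUMM2.1 (green) from 1 fit of 8 libraries, with bars for the SE. Sox10, Tgfb2 and Atp1b2 lie right of 0 in aC3 and left of it in YUMM2.1 (0.36 and -2.80 for Sox10), whereas the pairs of points of Cry1 and Per3 nearly coincide.

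Lineage genes carried large differences. Counts of called differences stand against 5.29% of all genes above 0 and 3.35% below, with 19 neural crest and 30 sterol members tested. On the scale of the 8 libraries, Sox10 had 456 and 445 CPM with EV and 606 and 549 with dHLH-Bmal1 in aC3, and in YUMM2.1 502 and 482 CPM with EV and 67.8 and 73.9 with dHLH-Bmal1. It fell there by 2.80 (SE 0.12), and the difference was 3.15 (SE 0.17, adjusted p = 4.7e-05). Sox6, a related factor, changed by 0.38 in aC3 and -2.26 in YUMM2.1 (difference 2.63, SE 0.17, adjusted p = 0.00013). Tgfb2 had a difference of 3.17 (SE 0.23, adjusted p = 0.00015), with 109 and 87.3 CPM with EV and 19.6 and 18.3 with dHLH-Bmal1 in YUMM2.1. Etv5 and Nkd2, a Wnt antagonist, had differences of 2.37 and 2.36 (SE 0.16 each, adjusted p = 0.00013 for both). Over the neural crest list the median difference was 0.77, with 8 members above 0, among them Erbb3 and Cdh19 (4.1 and 3.58), and 2 below, Snai2 and Gfra2, and 7 to 9 above when 1 library was left out. Scd1 and Insig1 fell in YUMM2.1 by 0.96 and 1.02 (differences 1.54 and 1.51, adjusted p = 0.0028 and 0.0013). The sterol list had 6 differences above 0 and 0 below (median 0.39), 3 to 7 without 1 library, 12 with the labels exchanged and 20 with shNC. With shNC the single differences passed too but were of other sizes, lower for Tgfb2 (1.80), Scd1 (0.98) and Insig1 (1.08) and higher for Nkd2 (3.76) and Sox10 (4.12).

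Other members of the lists had differences below 0, where the shares over all genes were 3.35% below and 5.29% above. The mesenchymal, ATF4 and hypoxia lists had 17, 35 and 47 members tested. In the matrix list 10 of 43 were below 0 and 5 above (median -0.26), the latter with Col15a1 at 5.48. Col1a2, a fibrillar collagen, had 2.70 and 2.90 CPM with EV and 3.60 and 1.28 with dHLH-Bmal1 in aC3, against 1.5 and 4.09 with EV and 120 and 66.7 with dHLH-Bmal1 in YUMM2.1 (difference -5.28, SE 0.76, adjusted p = 0.0035). Loxl2, a collagen cross-linking enzyme that overlaps 3 other genes, was at 5.74 and 8.06 CPM with EV and 89.4 and 59.8 with dHLH-Bmal1 in YUMM2.1 (difference -4.34, SE 0.50, adjusted p = 0.0012). Twist1 rose there by 0.93 (difference -1.59, SE 0.33, adjusted p = 0.017, and 0.050 to 0.095 without aC3-dHLH replicate 1, aC3-EV replicate 1 or aC3-EV replicate 2). Of the mesenchymal list 7 differences were below 0 and 2 above (median -1.29), and 3 to 8 below with 1 library left out. The ATF4 list had 20 below and 0 above (median -1.15), 8, 13, 9 and 9 without aC3-dHLH replicates 1 and 2 and aC3-EV replicates 1 and 2, 25 with the labels exchanged and 26 with shNC, with 27 of its members higher in YUMM2.1 and a median there of 0.95. For the hypoxia list the median difference was -0.46, with 9 below 0 and 1 above (Eno2), and 2 to 8 below with 1 library left out, but with shNC it was 0.15, with 3 below and 11 above. The cell cycle medians were -0.32 in aC3 and -0.24 in YUMM2.1, and 1 member, Ccne1, had a called difference (0.91).

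**Figure D5:**
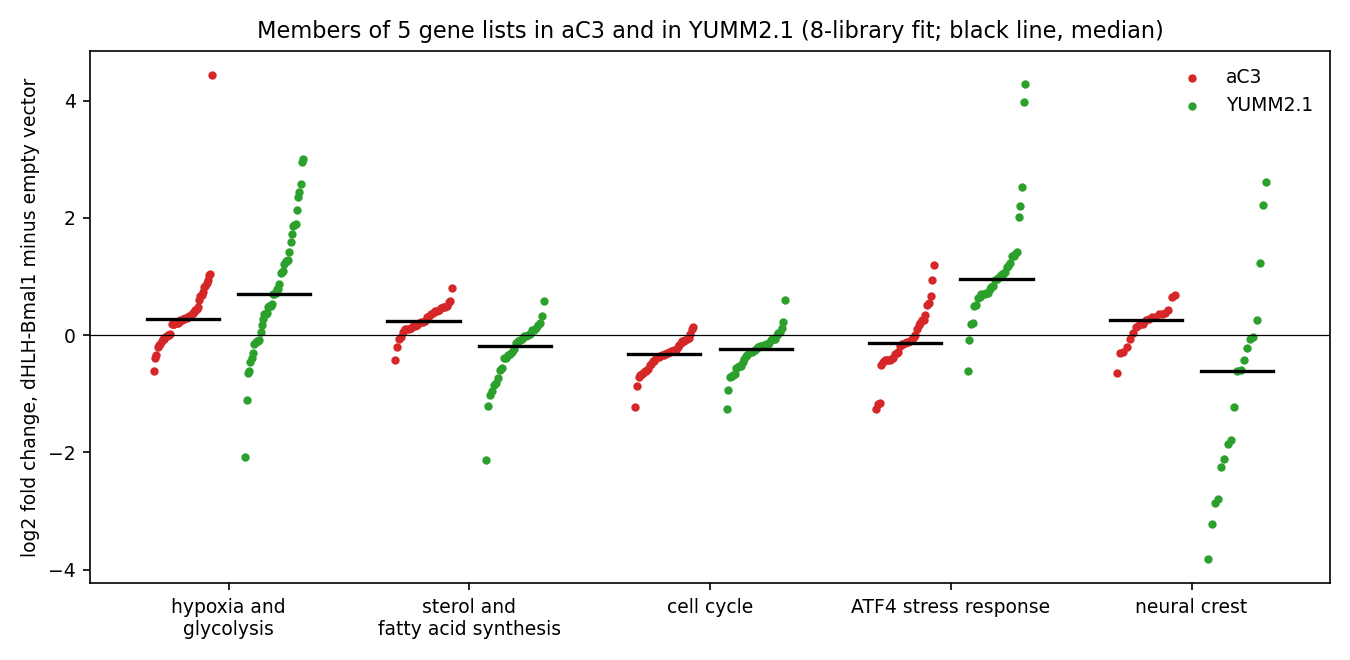
Log2 fold changes of dHLH-Bmal1 against EV for every tested member of 5 lists in aC3 (red) and YUMM2.1 (green), with black lines at the medians. Medians are on opposite sides of 0 for the ATF4, sterol and neural crest lists, both below 0 for the cell cycle list, and the single aC3 point at 4.44 is Adm, with 0 and 0 counts with EV and 4 and 1 with dHLH-Bmal1.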

How the data were processed

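The 40 libraries were QuantSeq FWD 3′ mRNA libraries from 100 ng of DNase-treated RNA. The authors aligned the reads to mm10 with bowtie2, estimated gene counts with RSEM on Ensembl transcripts, and deposited the expected counts rounded to whole numbers without normalization. These estimated counts cover 51789 genes, of which 51596 have a symbol in GENCODE M21 (GRCm38). Strand of counting is not given in the sources used here, so genes that overlap others, or share sequence with copies among which RSEM divides reads, are uncertain. In R 4.3.3, edgeR 4.0.16 (TMM, filterByExpr, quasi-likelihood F test, Benjamini-Hochberg over all genes tested) was fitted to the 6 aC3 libraries, and to 8 libraries for the difference between lines. CPM are after TMM. DESeq2 1.42.0 was an alternative test, as the authors used it, and the others were DESeq2 size factors, other filters, the replicate block, other library sets, a 2-fold minimum and leaving out each library. Leaving out genes that split the YUMM2.1-dHLH replicates by 2-fold was added after the data were seen. Scripts were tested on simulated data.

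The comparison, the 30 gene lists (1 symbol had no match) and the named genes were chosen with earlier results of these data known. Named genes are the clock lists, up to 4 called members of each other list with the largest changes plus genes that the study discusses, the 12 largest rises and 12 largest falls against EV, 8 in each direction against WT and 6 for the difference, with a mean of at least 30 counts. Members given without their CPM are further called members of a list. Mxd4, Rnu3a, Gm14036, Adm and single called members of lists (Bnip3l, Ccne1) were named after their values were seen. Some items that the rule names, and 1 feature of the line's genotype, are not reported here. Promoters are from RefSeq on GRCm38.p6.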

Additional observations from a re-analysis of the deposited data

Results flagged for a closer look

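Each result here was flagged because the effect of dHLH-Bmal1 differed between aC3 and YUMM2.1 by the edgeR test of the difference, aC3 minus YUMM2.1, in log2 units. In all, 1248 genes passed. Above 0 were Ptprz1 (6.72), Atp1b2 (6.52), 3100002H09Rik (5.88), Pdzrn4 (5.66), Col15a1 (5.48), Ppp4r4 (4.73), Tgfb2 (3.17) and Sox10 (3.15). Each of these 8 was lower with dHLH-Bmal1 in YUMM2.1. With control-hairpin (shNC) libraries the difference was 3.32 for Pdzrn4 and 1.80 for Tgfb2. In aC3, Ptprz1, a receptor phosphatase, had 5.41 and 5.06 CPM with EV and 12.9 and 8.56 with dHLH-Bmal1, while in YUMM2.1 it went from 27.7 and 12.1 to 0.194 and 0.603 CPM.

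Below 0 were Siglecg (-7.38), Gdf15 (-6.55), Col1a2 (-5.28), Cdsn (-4.37) and Loxl2 (-4.34), all higher with dHLH-Bmal1 in YUMM2.1. Gdf15, a stress-induced cytokine, was at 0.249 and 0.215 CPM with EV and 17.5 and 8.68 with dHLH-Bmal1 there, and it did not pass the filter in the aC3 fit. In counts, Gdf15 had 3 and 5 with EV and 1 and 3 with dHLH-Bmal1 in aC3, and 3 and 2 against 181 and 72 in YUMM2.1. Siglecg had 17 and 12 with EV and 5 and 0 with dHLH-Bmal1 in aC3, and 4 and 7 against 157 and 167 in YUMM2.1. At so few counts the fitted differences depend on the prior count and are no bound, which holds also for Ptprz1, Atp1b2, 3100002H09Rik, Pdzrn4, Col15a1 and Ppp4r4, each at 0 to 5 counts in the YUMM2.1-dHLH libraries. The call of Ppp4r4 is lost when 1 library is left out for 5 of the 8 libraries, at adjusted p-values up to 0.087, and that of Gdf15 without aC3-EV replicate 2 (0.074).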

How the results depend on the processing

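The number of genes called against EV in aC3 (1501) was 917 by DESeq2, 160 in 1 fit of all 40 libraries, 165 with a 2-fold minimum, and 262 to 2016 with 1 library left out. Against WT (121) it was 396 with no filter, 280 with the replicate block, 18 in 1 fit of 40 libraries, 37 with a 2-fold minimum, and 31 to 368 with 1 library left out. The count of differences between lines (1248) was 1984 with no filter, 1920 in 1 fit of 40 libraries, 2479 with labels exchanged, 2518 with shNC, and 496 to 1478 with 1 library left out. What same-numbered aC3 libraries share beyond the number is not stated, and the correlations of their deviations were 0.062, 0.025 and 0.074. In the fit of aC3 with YUMM2.1 libraries, the correlation was 0.39 between YUMM2.1-EV and YUMM2.1-dHLH. The other pairs of groups in that fit gave -0.091 to 0.072. The same-numbered libraries of YUMM2.1-EV and YUMM2.1-dHLH thus deviated in part together, and what they share was not tested. The replicate block gave 1993 genes against EV, 1524 differences between lines and 0.26 for Arntl.

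With 1 library left out, log2 fold changes against EV took both signs for Arntl (-0.018 to 0.49), Arntl2 (-0.69 to 0.36), Per2 (-0.10 to 0.90), Tef (-0.062 to 0.17), Usp2 (-0.16 to 0.11), Mitf (-0.071 to 0.26), Csnk1d (-0.0067 to 0.057), Myh9 (-0.086 to 0.039), Srf (-0.27 to 0.10), Bhlhe41 (-0.34 to 0.24) and Fbxl21 (-0.10 to 0.80), none of them called. With shNC the differences of Dbp, Cry1, Nr1d1 and Per3 were -0.33, 0.31, -0.57 and -0.62, all of changed sign. That of Cry1 was 0.0058 with no filter, 0.016 in 1 fit of 40 libraries and -0.34 to 0.37 with 1 library left out, that of Per3 -0.35 to 0.39, and that of Nr1d1 -0.034 with labels exchanged. Of 97 named genes called against EV, 74 were not called in 1 fit of 40 libraries, 61 without EV replicate 2 and 37 without EV replicate 1, and DESeq2 lost 19 of the 81 it tested. With 2 libraries a group, the spread of genes at few counts, such as Nr1d1, limits every fold change given. The libraries of each aC3 group differed beyond sampling noise, with a chi-square per degree of freedom of 11.9 for dHLH-Bmal1, 4.16 for EV and 3.96 for WT. The SD of the log2 ratio between the libraries of a group was similar, at 0.49, 0.46 and 0.47.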
